A study of Bombyx mori with 3 samples.

Results

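The 40 non-coding RNAs (ncRNAs) described here were those of a silkworm array whose levels in egg and in adult moth lay closest to the larval level. They were chosen from 132 ncRNAs named Bm with a number, of which 122 were measured in both egg and adult. Log2 ratios (stage over larva) were averaged over the spots of each dye orientation and then over the orientations. The 30 ncRNAs with the highest and the 30 with the lowest difference of egg minus adult were left out. Of the 62 that remained, the 40 with the smallest distance from larva were taken, counting the larger of the absolute egg and adult log2 ratios. Egg and adult values of these 40 are therefore a description of the choice and were not tested. The pupal scan with larva in Cy5 was not used by the choice. Signal strength was not part of the rule either. In the egg and adult scans, however, it comes from the same kept spots and intensities as the ratios. It is therefore a description and does not stand apart from the choice there.

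All RNA came from the silkworm Bombyx mori, strain Dazao P50. The egg pool mixed diapaused with non-diapaused eggs, pupae of days 1 to 9 were pooled, and male and female moths were pooled as adult. The reference in every hybridisation was 1 larval pool that mixed instars 1 to 5, raised like the rest at 25 °C under a cycle of 14 h light and 10 h dark. The column names call the egg sample embryo. Each stage was 1 pool of total RNA, so biological replicates were lacking, stages could not be tested against each other, and every SD below is taken over the kept spots of a probe, at most 3 for an ncRNA. No marker that would check a pool's stage was among the array's named controls, and in whole-animal pools fewer cells of a type and less RNA per cell cannot be told apart.

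The array was made for ncRNAs of 50 to 500 nucleotides. RNAs of this size in animals include the small nuclear RNAs that form the spliceosome, the small nucleolar RNAs that guide methylation and pseudouridylation of ribosomal RNA, and the RNA cores of the signal recognition particle and of RNase P. Many of these serve splicing, ribosome assembly and protein export, which every cell runs, while the silkworm rebuilds most of its body between larva and moth. The deposited names give no RNA class, so which of the 40 belong to these classes is not known here. None of the 40 names (0) occurred in the RefSeq gene table of the silkworm, and no sequence or position is given for them.

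One hybridisation stood in both the pupal and the adult table, once as pupa in Cy5 and once as adult in Cy3. Flags were equal at 561 of 561 spots between these, and the SD of the difference in log2 red over green was 0.0133 over 363 kept spots. Which of these stages it holds was not settled. The rule takes it as adult in Cy3, and so do the adult means below, which mean something else if it holds pupa. Pupal values are taken from the other pupal scan, with pupa in Cy3 and larva in Cy5, and the range of adult values is also given without the shared scan. In the 5 scans that remain, 78.3% to 92.5% of the members' spots were kept, against 73.7% to 85.9% of all ncRNA spots. The choice required a kept spot in egg and in adult, which favours a higher share in those scans. In the pupal scan the share was 78.3% against 76.5%. Of the 40, 31 were measured in all 5 scans, and 16 kept every one of their 15 spots. Each of the 5 scans had a median log2 ratio of -0.04 to 0.10 over its kept ncRNA spots, and steady here means steady relative to the middle of the array.

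The members' egg log2 ratios ran from -0.35 to 0.34 with a median of 0.04, and their adult log2 ratios from -0.33 to 0.27 with a median of -0.05. For 17 of the 40 both ratios lay within 0.2 of the larval level, and for 5 within 0.1. Egg was the stage farther from larva for 23 members and adult for 17. No member (0 of 40) was past 1.5-fold in egg, where 20.6% of all ncRNAs were, or in adult, where 17.5% were, which the choice of members fixes. To be called at 1.5-fold, an ncRNA needed an absolute mean log2 ratio of 0.585 or more and 1 sign over its kept spots. Without the shared scan, the adult ratios of the 39 members measured with adult in Cy5 ran from -0.43 to 0.27. The number past 1.5-fold was then again 0, with 18.6% of all ncRNAs called in that scan, and the choice used that scan too.

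Bm-77 had the smallest larger value of the 40, at -0.04 ± 0.34 (SD, 3 spots) in egg and 0.02 ± 0.24 in adult. Its spots spread far more widely than that mean, and it had no kept spot in the shared scan or the pupal scan. Bm-22 followed, at 0.06 ± 0.16 in egg and -0.05 ± 0.07 in adult. Bm-61 was at 0.07 ± 0.09 in egg and -0.02 ± 0.10 in adult. These 3 ncRNAs differed in how they had come to lie near 0. In Bm-22 the 4 egg and adult scans gave -0.01, 0.14, 0.03 and -0.13, all close to the larval level. Its pupal value lay farther off, at 0.36 ± 0.06. In Bm-61 the egg scans gave -0.29 with egg in Cy5 but 0.42 with the dyes swapped, while both adult scans were within 0.1 of 0.

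Bm-11, Bm-133 and Bm-26 completed the 6 closest. Bm-11 was at 0.09 ± 0.14 in egg and 0.07 ± 0.11 in adult, Bm-133 at -0.10 ± 0.03 and -0.02 ± 0.11, and Bm-26 at -0.03 ± 0.06 and 0.10 ± 0.18. Of these, Bm-133 and Bm-26 stayed within 0.3 of the larval level in every one of the 5 scans, as did Bm-3 and Bm-116 and no other member. Both channels were above background in all 5 scans for Bm-116, in 4 for Bm-3, in 3 for Bm-133 and in 2 for Bm-26. Both channels were below background for Bm-26 in both adult scans and the pupal scan, and for Bm-133 in the shared scan. Ratios near 0 there do not show a steady level. With egg in Cy5, Bm-26 had 1 kept spot. In Bm-133 the 5 scans gave 0.07 and -0.26 for egg, 0.00 and -0.05 for adult and 0.06 for pupa.

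The last members inside the limit were Bm-141, Bm-2 and Bm-6. Bm-141 was at 0.01 ± 0.07 in egg and -0.33 ± 0.05 in adult, so its place was set by adult alone. Bm-2 was at 0.34 ± 0.06 and 0.22 ± 0.13, and Bm-6 at -0.35 ± 0.06 and -0.33 ± 0.05. In both of these, all 4 egg and adult scans lay on 1 side of larva, with a distance of 1.27-fold for each at its farther stage. Bm-6 was above background in both channels of all 5 scans, and Bm-2 in 2 of them. In both adult scans Bm-2 was below background in both channels. Just outside were Bm-9 at 0.20 ± 0.19 in egg and 0.35 ± 0.15 in adult, Bm-164 at 0.27 ± 0.03 and 0.36 ± 0.02, and Bm-128 at -0.37 ± 0.44 and -0.29 ± 0.12. Bm-6 and Bm-9 differed by less than 0.01 in the value that decided their places, far less than the spread between spots.

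**Figure D1:**
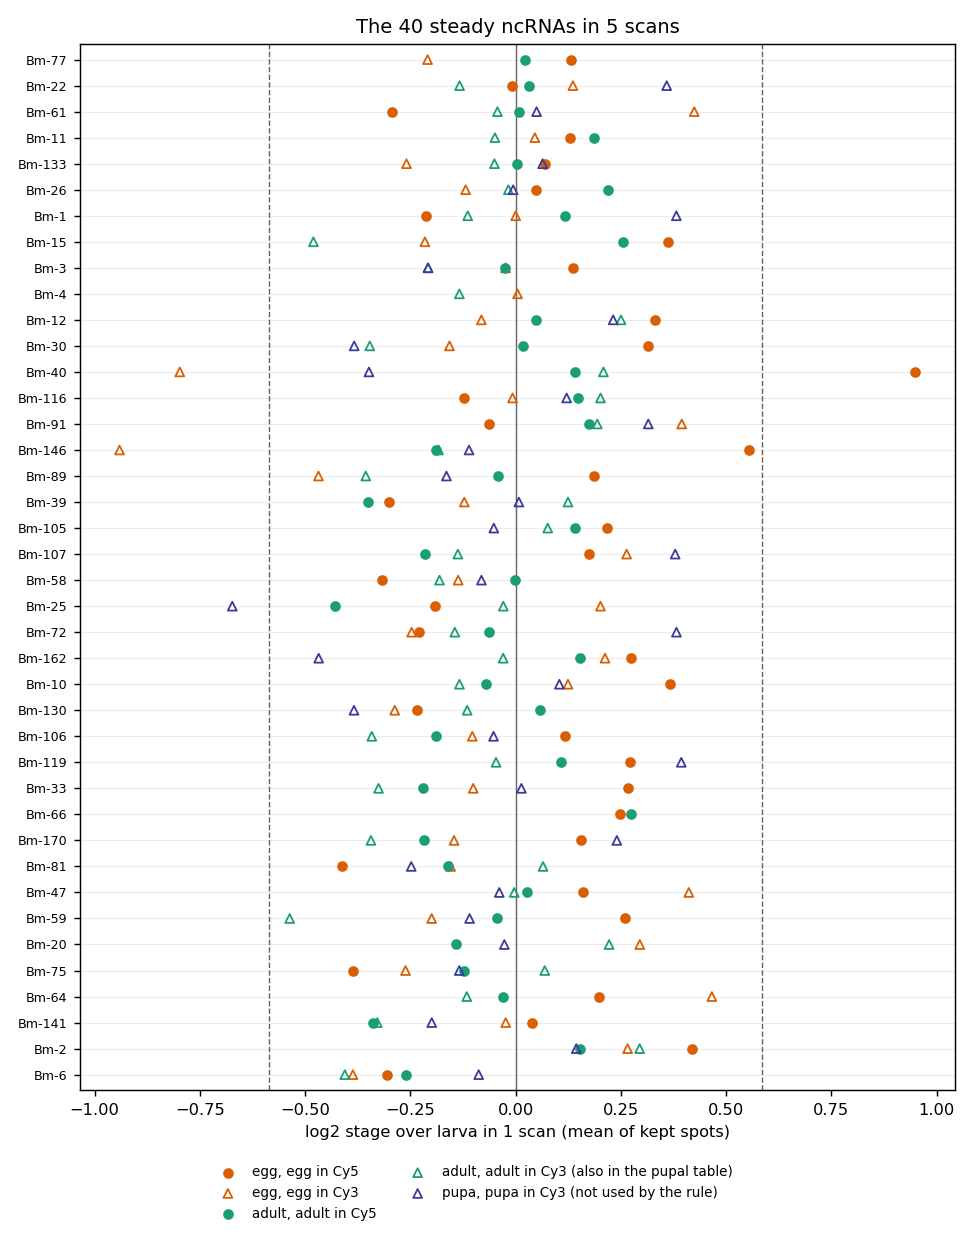
Log2 ratio of stage over larva (horizontal axis) for each of the 40 steady ncRNAs (rows, ordered from the smallest to the largest distance from larva), with 1 point for each scan that measured it and dashed lines at 1.5-fold. Points past a dashed line belong to Bm-40 and Bm-146 in the egg scans and to Bm-25 in the pupal scan.

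The pupal scan asked whether ncRNAs that were close to larva in egg and adult were also close to larva in pupa. Of the 40, 34 were measured in it, and their log2 ratios of pupa over larva ran from -0.67 to 0.39 with a median of -0.03. The members past 1.5-fold numbered 1 of 34 (2.94%), against 14.4% of the 111 ncRNAs measured in this scan. That member was lower in pupa, a direction called for 6.31% of all ncRNAs, and none (0 of 34) was higher, against 8.11%. The median absolute log2 ratio was 0.15 for the 34 members and 0.22 over all 111. It was 0.14 for 20 of the other 22 ncRNAs between the tails, of which 3 were past 1.5-fold, so by their median the members were not closer to larva than these neighbours. The pupal ratio shares its larval pool with the egg and adult ratios and comes from 1 dye orientation, and no test of it was possible.

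The member past 1.5-fold was Bm-25. Its pupal signal was 339 intensity units against a larval signal of 597, with log2 ratios of -0.78, -0.82 and -0.42 in its 3 spots and a mean of -0.67 ± 0.22. Background, taken as the 95th percentile of negative spots, was 369 in the pupal channel, above the signal of Bm-25, and 377 in the larval channel, below it. In the other stages Bm-25 was at 0.01 ± 0.09 in egg and -0.23 ± 0.02 in adult, where the scan with adult in Cy5 gave -0.43 and the shared scan -0.03. With an extra loess fit in each scan its pupal value was -0.58 and the call ended. It also ended without the dimmest 25% of spots, where the spots of Bm-25 in this scan were left out.

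The members nearest to the larval level in pupa were Bm-26 at -0.01 ± 0.12 and Bm-39 at 0.01 ± 0.01, each from 2 spots, and Bm-33 at 0.01 ± 0.07. Bm-20 followed at -0.03 ± 0.32, Bm-47 at -0.04 ± 0.29 and Bm-61 at 0.05 ± 0.15. Bm-20 and Bm-26 were below background in both channels of this scan, and their ratios there are not read as a level. Bm-20 gave signals of 81.8 for pupa and 96.6 for larva, close to the median of the negative spots (57.3 and 64.2). In all, 11 of the 34 lay within 0.1 of larva and 11 lay more than 0.3 away. The quartiles of the absolute log2 ratio were 0.07 and 0.36 for the members and 0.10 and 0.39 over all 111 ncRNAs. They were 0.08 and 0.23 for the 20 others between the tails, so closeness to larva here was not particular to the members. In 19 of the 34 all kept spots had the same sign, and in 15 the spots lay on both sides of 0. These counts were not made over all ncRNAs.

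Among those more than 0.3 away, some repeated closely over their spots. Bm-162 had pupal log2 ratios of -0.44, -0.50 and -0.47 in its 3 spots, with signals of 1355 for pupa and 1837 for larva. Its mean of -0.47 ± 0.03 stood below its egg value of 0.24 ± 0.08 and its adult value of 0.06 ± 0.13. Its range over the 4 stages, larva included, was 0.71, the widest of the 34. Bm-72 was at 0.38 ± 0.07 in pupa from 2 spots, with -0.24 ± 0.04 in egg and -0.10 ± 0.11 in adult. Bm-1 was at 0.38 ± 0.14 in pupa, with -0.11 ± 0.16 in egg and 0.00 ± 0.15 in adult. These ncRNAs were named after their pupal values were seen. The remaining members with a pupal value lay between Bm-61, whose 4-stage range was 0.08, and Bm-25, at 0.68. The median range was 0.32 for the 34 members.

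**Figure D2:**
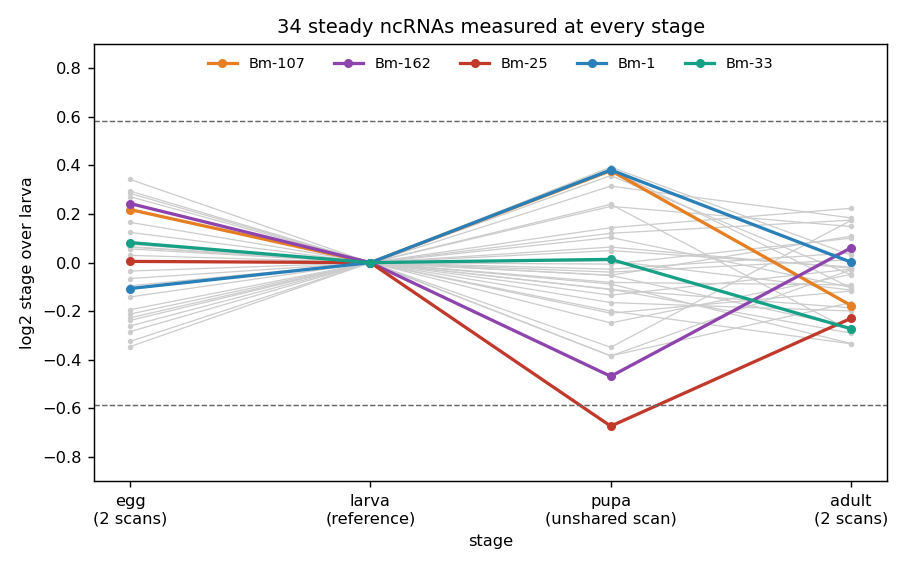
Log2 ratio of stage over larva (vertical axis) for the 34 steady ncRNAs measured at every stage, with larva at 0 by definition, pupa from its unshared scan and dashed lines at 1.5-fold. Only Bm-25 crosses a dashed line, at -0.67 in pupa, while Bm-162 goes from 0.24 in egg to -0.47 in pupa.

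**Figure D3:**
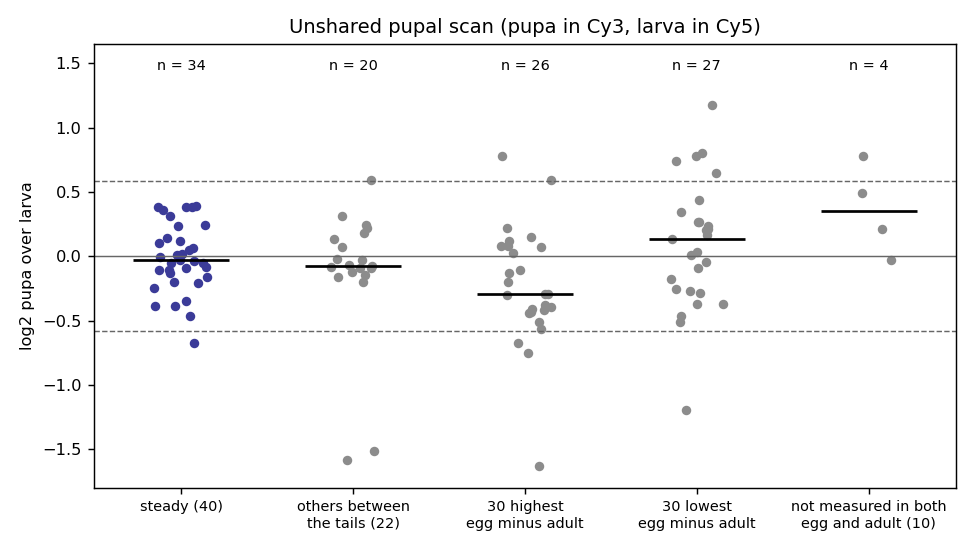
Log2 ratio of pupa over larva in the unshared scan (vertical axis) by how each ncRNA fell under the rule on egg and adult, with a point per ncRNA, a line at each median and dashed lines at 1.5-fold. The 34 steady ncRNAs lie between -0.67 and 0.39, and the 20 others between the tails reach -1.58.

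Of the 6 members not measured in the pupal scan, Bm-11 had strong signals elsewhere, with larval signals of 987 to 11608 in the other 4 scans. The others were Bm-4, Bm-15, Bm-64, Bm-66 and Bm-77, with median larval signals between 319 (Bm-64) and 788 (Bm-4). For these 6 the label steady covers egg, larva and adult only.

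Signal strength varied widely among the 40. The brightest by median larval signal were Bm-33 at 48683 intensity units and Bm-146 at 38600, followed by Bm-72 at 5725, Bm-141 at 3694, Bm-10 at 3043 and Bm-170 at 2678. The dimmest were Bm-64 at 319, Bm-20 at 386, Bm-30 at 497 and Bm-66 at 500. Intensities of different probes are not levels of different RNAs, since probes differ in how strongly they bind and label. The median larval signal of the members was 910 with egg in Cy5, 982 with the dyes swapped, 961 with adult in Cy5 and 1678 in the shared scan, and 1394 in the pupal scan. Over all measured ncRNAs these medians were 939, 1091, 1107, 1473 and 1170.

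The negative spots give a measure of background, as above. Both channels exceeded it for 30 of 38 measured members with egg in Cy5 (78.9%, against 82.1% of all measured ncRNAs), and for 36 of 37 in the swapped egg scan (97.3% against 97.5%). With adult in Cy5 the count was 26 of 39 (66.7% against 66.9%), in the shared scan 19 of 38 (50.0% against 44.2%) and in the pupal scan 30 of 34 (88.2% against 90.1%). The percentile differed between scans, from 168 in the larval channel with egg in Cy3 to 1551 in the larval channel of the shared scan. Members above it in both channels of every scan that measured them numbered 16, and 36 with the 90th percentile in its place. In 16 members both channels were below it in 1 scan or more, among them Bm-25, Bm-40 and Bm-133. These counts across scans were not made over all ncRNAs. In the shared scan alone both channels were below it for 15 of 38 measured members and for 56 of 120 ncRNAs. The median of the negative spots in that scan was 98.3 in the larval channel and 63.5 in the stage channel. A signal below the percentile there can therefore lie well above the typical negative spot. A ratio near 0 between 2 signals at background does not show a steady level, and the part of background in the members' small ratios was not tested.

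The 16 members above background in every scan that measured them were Bm-1, Bm-6, Bm-11, Bm-22, Bm-33, Bm-58, Bm-61, Bm-72, Bm-89, Bm-105, Bm-107, Bm-116, Bm-141, Bm-146, Bm-162 and Bm-170, and 14 of them were measured in all 5 scans. Among them were Bm-61, Bm-89 and Bm-146, with 3 of the 4 largest differences between dye orientations in egg, and Bm-105, whose egg value had 1 orientation. Bm-33 was the brightest, with stage signals of 38926 and 31344 for egg, 59139 and 38818 for adult and 65786 for pupa. Its larval signals in the same scans were 31986, 33378, 67515, 48683 and 67595. The log2 ratios were 0.08 ± 0.02 in egg and 0.01 ± 0.07 in pupa, and -0.22 ± 0.06 with adult in Cy5. The egg mean joins 2 scans on opposite sides of larva, at 0.27 for the Cy5 orientation and -0.10 after the dye swap. Its SD of 0.02 does not cover that difference, since the scans are averaged within each spot before the SD is taken. The shared scan gives no ratio for Bm-33 that can be read, because the intensities stop at a ceiling there. In its stage channel 20 spots of 7 different ncRNAs lay within 2% of the highest value (39075), and in its larval channel 8 spots of 4 ncRNAs lay within 2% of 48935. All 3 spots of Bm-33 were among them in both channels, and for Bm-146 so were all 3 in the stage channel and 1 in the larval channel. With adult in Cy5, 7 spots of 3 ncRNAs lay within 2% of the highest stage signal (66881), 1 of them of Bm-33. The adult mean of Bm-33, -0.27, takes in the shared scan and is no measured fold. Bm-116 was at -0.07 ± 0.04 in egg, 0.17 ± 0.03 in adult and 0.12 ± 0.14 in pupa, and Bm-58 at -0.23 ± 0.05, -0.09 ± 0.06 and -0.08 ± 0.11 in the same order.

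**Figure D4:**
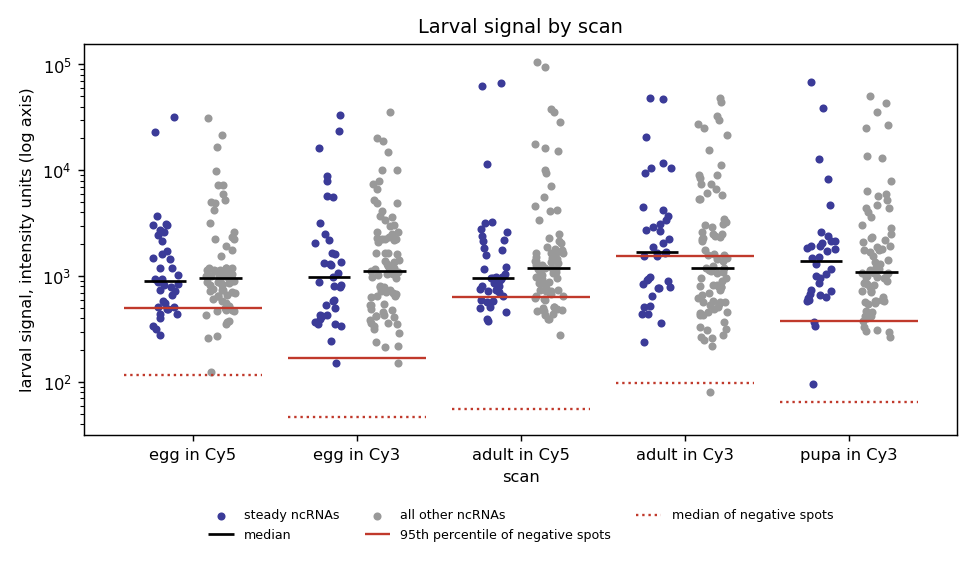
Larval signal in intensity units (log axis) in each of the 5 scans, with a point for the median of the kept spots of each steady ncRNA and each other ncRNA, black lines at the group medians and red lines at the 95th percentile and the median of the negative spots in that channel. The members' median larval signal is 910 to 1678, and in the shared scan the 95th percentile of the negative spots (1551) lies close to it.

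The larval signal of a member changed more between scans than its ratio did. Set against the median ncRNA of the same scan, the larval signal of the 31 members measured in all 5 scans varied 4.50-fold between the highest and the lowest scan (median, range 1.96 to 12.5). It varied 4.49-fold (median) in the 61 other ncRNAs measured in all 5, so this was not particular to the steady ncRNAs. With larva in Cy5 only, over 3 scans, the median was 4.13-fold in 32 members. Bm-170 varied most. Its larval signal was 23492 with egg in Cy3 and between 1766 and 2710 in the other 4 scans, and its egg signal in that scan was 21536. Its log2 ratios were 0.15 and -0.15 in the egg scans, -0.22 and -0.34 in the adult scans and 0.24 in the pupal scan. All hybridisations were labelled with the same larval pool, and the cause of the change in signal was not tested.

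The dye orientations bear on how firmly a mean near 0 can be read. In egg, 35 members were measured with both orientations, and the difference between them had a median size of 0.24 on the log2 scale, the same as over the 104 ncRNAs measured in both. In adult the median was 0.16 for 37 members and 0.17 for 112 ncRNAs. The orientations lay on opposite sides of larva for 19 of the 35 in egg and 16 of the 37 in adult. Choosing means near 0 favours opposite signs, and this was not counted over all ncRNAs. The orientations differed by more than 0.5 for 5 members in egg and 1 in adult. The upper quartile of the size of the difference was 0.40 in egg, against 0.44 over all ncRNAs. In adult it was 0.23 against 0.32.

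The largest differences were in 2 members whose egg mean was close to 0. Bm-40 had log2 ratios of 1.02 and 0.88 in its 2 kept spots with egg in Cy5, and all 3 of its spots were below 0 with egg in Cy3. The scans averaged 0.95 and -0.80, and their mean was 0.08. Bm-146 had 0.50, 0.57 and 0.59 with egg in Cy5 and -0.93, -1.01 and -0.89 after the dye swap, or 0.55 and -0.94, with a mean of -0.19. Its spot SD of 0.04 leaves this difference out, because each spot is averaged over both scans first. In Bm-146 the scan with adult in Cy5 gave -0.19 and the pupal scan -0.11 ± 0.04, and its value in the shared scan is limited by the ceiling. Bm-40 was past 1.5-fold in both egg scans, in opposite directions, and Bm-146 in the scan with egg in Cy3. Each orientation was a hybridisation of its own, so that dye and hybridisation cannot be told apart.

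Bm-61 and Bm-89 had the next largest egg differences, with -0.29 and 0.42 for Bm-61 and 0.19 and -0.47 for Bm-89. In adult the widest were Bm-15 at 0.25 with adult in Cy5 and -0.48 in the shared scan, Bm-59 at -0.04 and -0.54, Bm-39 at -0.35 and 0.12, and Bm-25 at -0.43 and -0.03. None of these (0 of 37 members in adult) was past 1.5-fold in either adult scan. Over all ncRNAs, 22 of 118 were past it with adult in Cy5 and 23 of 120 in the shared scan. Both scans entered the choice, which favours a low count of members.

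**Figure D5:**
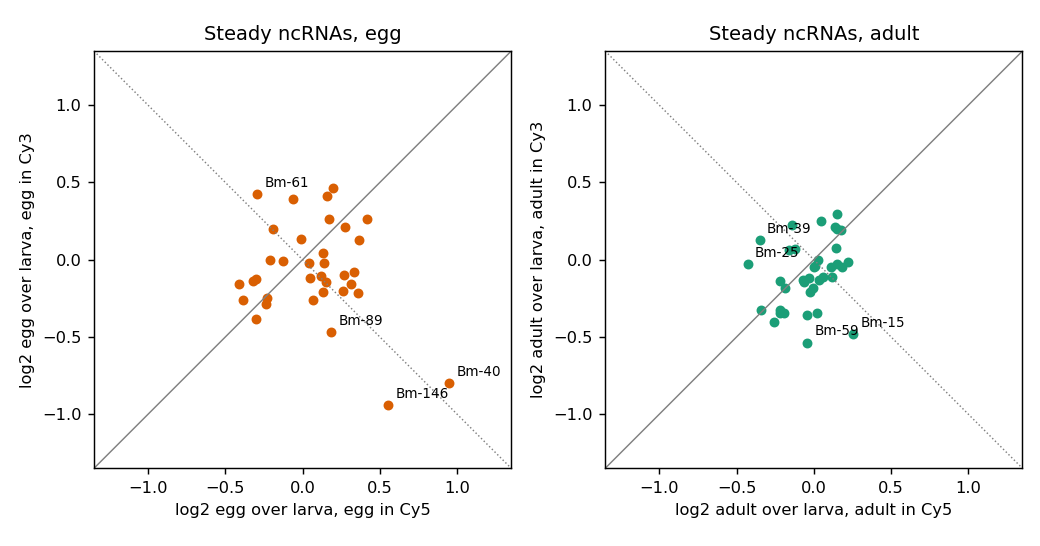
Log2 ratio of stage over larva with the stage in Cy5 (horizontal axis) against the stage in Cy3 (vertical axis) for the steady ncRNAs, in egg (left) and adult (right), with a solid line of equality and a dotted line where the 2 scans cancel. Bm-40 (0.95 and -0.80) and Bm-146 (0.55 and -0.94) lie far along the dotted line in egg.

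For 6 members a stage was measured in 1 orientation. Egg rested on Cy5 alone for Bm-105 (0.22 ± 0.18), Bm-119 (0.27, 1 spot) and Bm-66 (0.25, 1 spot), and on Cy3 alone for Bm-4 (0.00 ± 0.13) and Bm-20 (0.29 ± 0.17). Adult rested on Cy5 alone for Bm-77 (0.02 ± 0.24) and Bm-66 (0.27 ± 0.41), and on the shared scan alone for Bm-4 (-0.13 ± 0.20). Bm-66 had 4 kept spots of 15 and no scan with both channels above background, and Bm-64 had 7 and no such scan either.

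In the authors' deposited table the p-value per spot was under 0.05 at 2 of 113 member spots in egg (1.77%, against 24.2% of all ncRNA spots) and at 12 of 120 in adult (10.0% against 39.1%). They concern the same ratios by which the members were chosen, which fixes these low shares. In pupa it was under 0.05 at 0 of 113 member spots and at 4 of 355 ncRNA spots (1.13%) in the authors' deposited table. The deposited pupal ratios take in the shared scan, which the choice used as adult in Cy3. The pupal share therefore does not stand apart from the choice. These p-values compare technical measurements of the same pools, and their test is not stated. In the authors' deposited value table, Bm-40 stood at 0.05 in egg and 0.10 in adult, whereas the mean of the deposited spot ratios was -0.18 and 0.26, and Bm-40 was the 1 member for which the table and the spots differed.

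The members lay more among the low numbers of the names than among the high ones. Of the 31 lowest names measured in egg and adult, Bm-1 to Bm-36, 15 were members, followed by 11 of the next 31, 8 of the next 30 and 6 of the last 30, Bm-129 to Bm-183, with 40 of 122 over all. What the numbers stand for is not given in the sources used here.

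Of the named controls, RpL3, which codes for a ribosomal protein, stood at 0.89 ± 0.26 in egg and -0.27 ± 0.29 in adult (SD over 12 spots). Actin A3 was at -0.31 ± 0.23 over 12 spots and -0.28 ± 0.30 over 6, within the members' range at both stages. The control named ph was at 0.54 ± 0.20 and 0.84 ± 0.12 over 12 spots each, above that range at both.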

How the data were processed

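Per the labels' protocols, RNA isolated with Trizol was reverse transcribed with Cy3 or Cy5. For each spot and scan the deposited tables hold an intensity per colour and a flag, here treated as a score, and per the file headers which dye held the stage. Not given in the sources used here were the software, background correction and normalization. The intensities were taken as already normalized, from median log2 ratios near 0. The authors' deposited log2 ratio per spot was the mean over kept scans within 1e-06, and the deposited p-value was not used for calls.

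Spots with a flag of 0 or above were kept, log2 stage over larva was averaged within and then over dye orientations, and no pseudocount was added. Background was the 95th percentile of the 108 negative spots per channel. The rule step was tested on simulated data. Python 3.11.15, numpy 2.4.6, pandas 2.3.3 and statsmodels 0.14.6 were used. The number of arrays limits the precision. The members and lists were chosen with earlier results of these data known. Named ncRNAs were the 6 closest to larva, the 3 on each side of the limit, the 6 brightest and 4 dimmest, those past 1.5-fold and the 6 nearest 0 in the pupal scan, the 4 with the largest dye difference in egg and in adult, and those with 1 orientation.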

Additional observations from a re-analysis of the deposited data

Results flagged for a closer look

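In 4 steady ncRNAs with at least 2 kept spots at each stage compared, every kept spot of one stage lay above larva and every kept spot of another lay below it. None of these differences was tested, since each stage is 1 pool, and the same count was not made over all ncRNAs. Bm-107 had all its egg spots above 0 and all its adult spots below 0, with a difference of egg minus adult of 0.40 on the log2 scale, and its pupal spots were above 0, with adult minus pupa at -0.56. Bm-162 had its egg spots above and its pupal spots below 0, with egg minus pupa at 0.71. Bm-72 had its 6 egg spots below and its 2 kept pupal spots above 0, with egg minus pupa at -0.62. Bm-170 had its adult spots below and its pupal spots above 0, with adult minus pupa at -0.52. Differences that involve pupa rest on a single dye orientation there. Those that involve adult, in Bm-107 and Bm-170, take in the shared scan, whose stage was not settled.

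Of 87 spots of the steady ncRNAs that were left out by their flag, 14 were above background (the negative spots' 95th percentile) in both channels. They belonged to 11 ncRNAs, with 5 spots in the scan with egg in Cy5, 6 with egg in Cy3, 1 with adult in Cy5 and 2 in the pupal scan. Their log2 ratios ran from -0.51 to 0.41.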

How the results depend on the processing

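The rule was repeated under each setting, and 34 to 38 of the 40 ncRNAs were chosen again with the median of repeated spots, a pseudocount of 50, median centring, an extra loess fit or 1 spot left out. It chose 32 again with the stage in Cy5 alone and 28 with the stage in Cy3 alone, and 23 under both. Over 11 settings (those named so far, flagged spots kept, and the dimmest spots left out), 8 of the 40 were chosen in every one (Bm-11, Bm-22, Bm-25, Bm-33, Bm-72, Bm-133, Bm-162 and Bm-170). Being chosen again concerns egg and adult only. Of these, Bm-25 was past 1.5-fold in pupa, Bm-11 had no pupal value, and the adult mean of Bm-33 takes in the ceiling. Bm-72, Bm-162 and Bm-170 each had stages whose spots lay on opposite sides of larva. The rule chose 29 with flagged spots kept, 39 from the authors' deposited value table, and 34 with adult in Cy5 alone, an alternative added after seeing the data. Without the dimmest 25% of spots it chose 19, from 33 ncRNAs left between the tails, and with only ncRNAs measured in both orientations it chose 25 from 38. Fewer ncRNAs enter there, so that fewer than 40 can be taken. The pupal count past 1.5-fold, 1 member, was 2 with flagged spots kept (Bm-64 was added). It was 0 without the dimmest 25% of spots, with the extra loess fit, at 2-fold, with both pupal scans as labelled, and with that labelling and the shared scan's sign reversed (added after seeing the data). The pupal median absolute log2 ratio stayed between 0.12 and 0.19. The count of members above background was 16 and became 36 with the 90th percentile of the negative spots, a setting lower by construction. Of 679 recomputed log2 ratios of 28 named members, 46 moved by more than their spot SD. The sign against larva changed in 66 of the 679, spread over 30 of 78 values of a member at a stage, as in Bm-119 in egg (-0.31 to 0.27) and Bm-105 in egg (-0.12 to 0.32). No paired analysis was possible because each stage is 1 pool. Background signal limits the dim members most, and with 1 pool per stage no setting can show the spread between animals.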
